A study of Mus musculus with 2 samples.

Results

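Arginase 1 (Arg1) and 8 other genes of alternative macrophage activation were examined in RNA-seq data from whole mouse omentum after injection of diphtheria toxin (DT). The omentum is a fold of visceral fat that carries milky spots, clusters of lymphocytes, macrophages and stromal cells. The set was chosen from measured values, because Arg1 was among the largest increases in the Postn-DTR library. It comprised Arg1, Chil3, Retnla, Ccl24, Mrc1, Mgl2, Cd163, Il4ra and Stat6, and all 9 were found among the 24346 gene symbols of each library. The change of Arg1 therefore describes how the set was made and is no finding of its own, and the 8 others come from the same contrast, so that every difference is given as a description.

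There were 2 libraries, 1 per genotype, both from Mus musculus 5 days after DT. The WT library came from mice with no receptor allele, which received DT as well. The Postn-DTR library came from mice heterozygous for a human diphtheria toxin receptor placed in the first coding exon of Postn, so that cells using the Postn promoter are killed by DT; the promoter is active in Aldh1a2+ fibroblastic reticular cells of milky spots and also in mesenchymal cells of other organs. Age, sex and the number of mice behind each library were not given in the sources used here. With 1 library per genotype there is no replicate error and no test, and intervals below cover counting error only.

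Macrophages exposed to IL-4 or IL-13 take on a state called alternative activation. Both cytokines bind a receptor containing IL-4Rα, encoded by Il4ra, which leads to phosphorylation of the transcription factor STAT6, and STAT6 induces a set of target genes. In mice these targets include the arginine-cleaving enzyme arginase 1, the chitinase-like protein Ym1 (Chil3), the resistin-like protein RELMα (Retnla), the chemokine eotaxin-2 (Ccl24) and the lectin receptors CD206 (Mrc1) and CD301b (Mgl2). The hemoglobin scavenger receptor CD163 is usually counted with them but is induced mainly by IL-10 and glucocorticoids. Several of these genes are also used by other cells, for example Arg1 by hepatocytes and Chil3 by neutrophils.

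Levels are given as FPKM, fragment counts scaled to transcript length and library size, so that genes can be compared with each other. The change of a gene is the difference of log2(FPKM + 1), Postn-DTR minus WT, a scale that understates low genes. Genes are called higher or lower when the change reached 2-fold. Being within 2-fold also refers to the change, and the FPKM of such a gene can differ by a little over 2-fold, or by more in low genes. Ratios are of FPKM without the added 1, with 95% exact binomial intervals computed on estimated reads. Of the 9 genes 3 were at least 2-fold higher in Postn-DTR (33.3%), namely Arg1, Chil3 and Cd163. The corresponding share of all 13127 genes compared was 3.88%. Mgl2 was at least 2-fold lower (1 of 9, 11.1%), against 3.12% of all genes. The other 5 stayed within 2-fold. The median change of the 9 genes was 0.56, and that of all genes compared was 0.018. Because the set was picked from this contrast, nothing is read from the distance between these shares and medians.

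**Figure D1:**
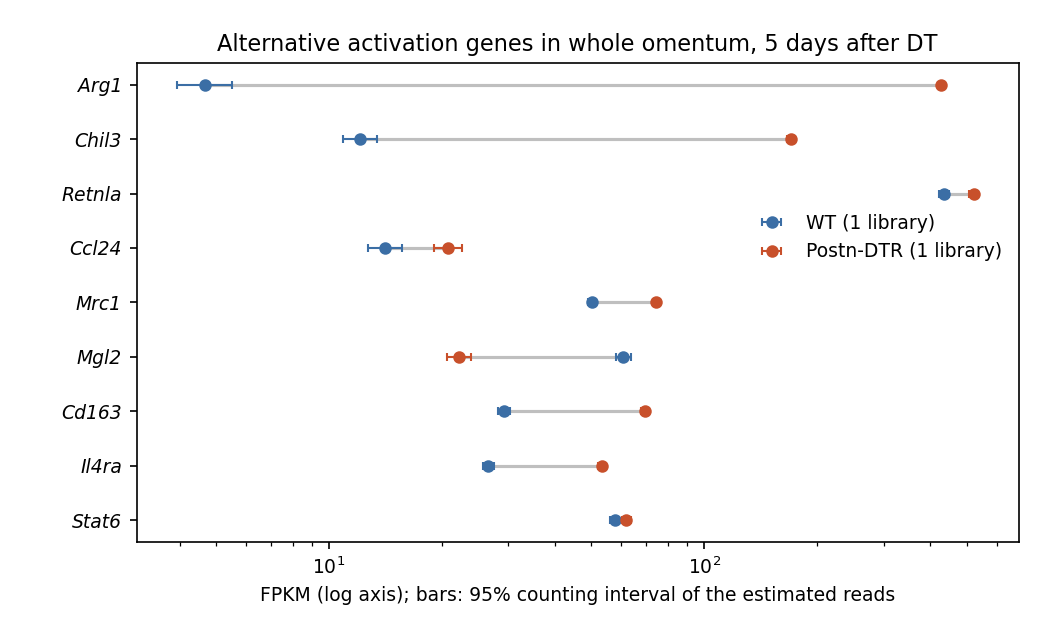
FPKM of the 9 genes in the WT and the Postn-DTR library (log axis); points are single libraries and bars are 95% Poisson intervals of the estimated reads. Arg1 moved from 4.68 to 427.3 and Chil3 from 12.1 to 170.0. Retnla was the highest of the 9 genes in both libraries, at 435.1 and 522.0, and Mgl2 was lower in Postn-DTR.

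The whole series bears on these values in 3 ways. Postn, the targeted gene, was at 58.3 FPKM in WT against 16.2 in Postn-DTR. The estimated depth was alike, about 2.33e+07 fragments in WT against 2.41e+07 in Postn-DTR. Pancreatic acinar genes made up 2.40% of all FPKM in WT and 0.00311% in Postn-DTR, and the FPKM summed to 542190 and 671882. With acinar genes left out and totals made equal (called equal totals from here on), the median change of all genes compared moved by -0.30, and the share of higher genes among those changed went from 55.4% to 27.9%. Changes smaller than this shift cannot be told apart from scaling.

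The secreted products and enzymes spanned the widest range. Arg1 (ENSMUSG00000019987, chr10:24915221-24927484 on the minus strand, GRCm38, 8 exons) was at 4.68 FPKM in WT, from about 138 estimated reads, against 427.3 in Postn-DTR, from about 13045. It was 91.3-fold higher (77.3 to 109), a change of 6.24, and ranked 4 of 13127 by increase. Its change lay between 5.48 and 6.48 under 5 other choices of scaling and pseudocount. Arginase 1 hydrolyses arginine to ornithine and urea.

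Chil3 (ENSMUSG00000040809, chr3:106147554-106167564 on the minus strand, 11 exons) was at 12.1 FPKM in WT against 170.0 in Postn-DTR. It was 14.1-fold higher (12.6 to 15.6), a change of 3.71 that ranked 22. Chil3 encodes a secreted lectin related to chitinases but without their enzymatic activity. Its closest paralog Chil4 was listed at 0 in both libraries. Of the 50-base windows of the Chil3 transcript 18.5% also occur in that of Chil4. A read lying wholly in shared sequence could thus belong to either gene, and the number of such reads was not determined.

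Retnla and Ccl24 stayed within 2-fold. Retnla (ENSMUSG00000061100, chr16:48842551-48844461 on the plus strand) was at 435.1 FPKM in WT against 522.0 in Postn-DTR, a ratio of 1.20 (1.15 to 1.25) and a change of 0.26 that turned to -0.082 at equal totals. Its direction thus depended on the scaling. Retnla, a secreted cysteine-rich protein, was the most abundant of the 9 in each library. Ccl24 (ENSMUSG00000004814, chr5:135569937-135573049 on the minus strand), which encodes an attractant of eosinophils, was at 14.1 FPKM in WT against 20.8 in Postn-DTR. The ratio was 1.47 (1.29 to 1.69) and the change 0.53, with 0.20 at equal totals.

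The makeup of the set thus differed between the libraries. The FPKM of the 9 genes summed to 690.6 in WT against 1422 in Postn-DTR, 2.06 times as much. Retnla held 63.0% of this sum in WT and 36.7% in Postn-DTR. Arg1 held 0.677% and 30.1%, and Chil3 1.75% and 12.0%. By level, Arg1 was the lowest of the 9 genes in WT and came second to Retnla in Postn-DTR. The WT order was Retnla, Mgl2, Stat6, Mrc1, Cd163, Il4ra, Ccl24, Chil3 and Arg1. The counting intervals of neighbours in this order overlapped for Mgl2 and Stat6 and for Ccl24 and Chil3. The Postn-DTR order was Retnla, Arg1, Chil3, Mrc1, Cd163, Stat6, Il4ra, Mgl2 and Ccl24, and Mgl2 and Ccl24 alone had overlapping intervals there.

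Promoter sequence was compared for the members with an entry in the RefSeq promoter windows on GRCm38.p6, which was 7 of 9 (Chil3, Retnla, Mrc1, Mgl2, Cd163, Il4ra and Stat6). The 250 bases before each RefSeq start were searched on both strands. The motifs were the STAT6-type spacing TTCNNNNGAA, the shorter STAT spacing TTCNNNGAA, the C/EBP-type motif TTGCNNAA and the ETS-type core GAGGAA. The last is bound by PU.1, a macrophage transcription factor. The first and second read the same on both strands. Gene positions in this report come from another annotation, GENCODE, whose starts can differ. The windows of Retnla, Mrc1, Mgl2 and Il4ra reach past the GENCODE start into the gene. The windows of the 3 called genes with an entry and of Retnla are printed 5′ to 3′, with matches to the STAT6, STAT and C/EBP motifs in capitals, because Chil3, Cd163 and Mgl2 changed at least 2-fold and Retnla was the most abundant of the 9 genes and holds the STAT6-type match.
Chil3 (chr3:106167565-106167814, minus strand): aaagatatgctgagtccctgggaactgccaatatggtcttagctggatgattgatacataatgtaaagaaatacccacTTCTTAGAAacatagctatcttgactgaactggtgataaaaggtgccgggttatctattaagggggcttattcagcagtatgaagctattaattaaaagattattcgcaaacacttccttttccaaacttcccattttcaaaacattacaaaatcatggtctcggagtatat
Retnla (chr16:48842359-48842608, plus strand): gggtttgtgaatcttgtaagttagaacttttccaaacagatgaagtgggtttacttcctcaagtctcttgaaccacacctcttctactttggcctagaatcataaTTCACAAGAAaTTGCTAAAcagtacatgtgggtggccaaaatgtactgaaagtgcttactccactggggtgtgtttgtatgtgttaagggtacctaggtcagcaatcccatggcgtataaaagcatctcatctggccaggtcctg
Cd163 (chr6:124304401-124304650, plus strand): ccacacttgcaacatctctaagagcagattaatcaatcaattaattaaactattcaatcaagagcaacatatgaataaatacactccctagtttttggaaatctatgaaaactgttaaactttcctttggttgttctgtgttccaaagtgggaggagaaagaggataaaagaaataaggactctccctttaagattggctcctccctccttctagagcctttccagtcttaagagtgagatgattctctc
Mgl2 (chr11:70130107-70130356, plus strand): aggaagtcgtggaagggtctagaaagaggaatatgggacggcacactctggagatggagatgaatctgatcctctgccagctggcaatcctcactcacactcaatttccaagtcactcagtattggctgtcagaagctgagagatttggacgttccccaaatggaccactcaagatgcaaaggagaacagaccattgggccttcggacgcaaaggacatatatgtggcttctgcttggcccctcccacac

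The STAT6-type motif was found in 1 of the 7 windows, that of Retnla, as TTCACAAGAA with its first base at position -145 from the RefSeq start. It was followed after a single base by the only C/EBP-type match of the 7, TTGCTAAA. Among all 32851 promoter windows of this length 5.85% hold the STAT6-type motif and 9.56% the C/EBP-type motif. The shorter STAT spacing was found in 1 window, that of Chil3, as TTCTTAGAA with its first base at position -172, and 7.02% of all windows hold it. The PU.1 core was in 4 of the 7 windows (Retnla, Mrc1, Mgl2 and Stat6), against 23.3% of all windows. In the Stat6 window its 2 matches lay next to each other without overlap. The windows of Cd163 and Il4ra held none of the 4 motifs. A match of letters is a description and not a binding site.

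**Figure D2:**
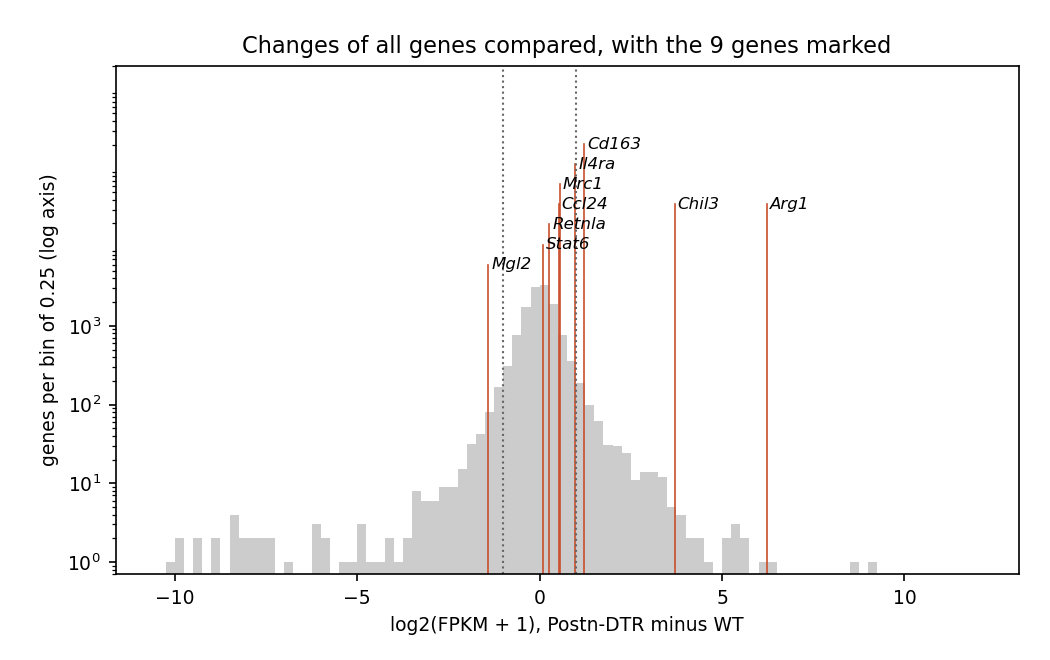
Distribution of the change in log2(FPKM + 1), Postn-DTR minus WT, over the 13127 genes compared (grey bars, log count axis), with the 9 genes as labelled lines and dotted lines at 2-fold. Arg1 at 6.24 and Chil3 at 3.71 stand far to the right, Mgl2 at -1.41 is the only one to the left of the lower dotted line, and Il4ra at 0.98 sits just inside the upper one.

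The 3 surface receptors differed in direction and size. Cd163 (ENSMUSG00000008845, chr6:124304656-124330527 on the plus strand) was at 29.2 FPKM in WT against 69.5 in Postn-DTR. It was 2.38-fold higher (2.27 to 2.48), with a change of 1.22 that fell under the 2-fold threshold at equal totals (0.88). Mrc1 (ENSMUSG00000026712, chr2:14229392-14332057 on the plus strand), the mannose receptor, was at 50.3 FPKM in WT against 74.5 in Postn-DTR, a ratio of 1.48 (1.43 to 1.53) and a change of 0.56. Under the same 5 choices the change of Mrc1 lay between 0.22 and 0.57.

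Mgl2 (ENSMUSG00000040950, chr11:70130329-70137550 on the plus strand) was the exception. It encodes a galactose-type lectin found on alternatively activated macrophages and on a subset of dendritic cells. It was at 60.9 FPKM in WT against 22.3 in Postn-DTR, 2.74-fold lower (2.51 to 2.98), with changes from -1.75 to -1.27 under the 5 other choices. The closely related Clec10a, which encodes CD301a, had a change of the opposite sign. Clec10a was at 71.1 in WT against 148.2 in Postn-DTR, a change of 1.05 that came to 0.71 at equal totals and 0.95 at an equal 75th percentile. The ratio of Clec10a to Mgl2 was 1.17 in WT and 6.66 in Postn-DTR. The transcripts have 15.7% of the 50-base windows of Mgl2 in common, so part of the reads of either gene could belong to the other.

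Dendritic cell markers were lower together with Mgl2. All 8 genes of that list passed the expression minimum, and 6 were at least 2-fold lower, 1 higher and 1 within 2-fold. Among all genes compared 3.12% were lower and 3.88% higher. The median change of the list was -1.26. The count of 6 lower came to 1 with a minimum mean of 10 FPKM, to 0 with a pseudocount of 5 and to 1 at 3-fold. Flt3, a growth factor receptor of dendritic cells and their progenitors, fell from 6.56 to 1.49. Itgax, which encodes CD11c, fell from 11.2 to 4.06. Cd209a, a lectin of monocyte-derived dendritic cells, fell from 15.8 to 6.05. Zbtb46, a transcription factor of the lineage, was at 5.78 and 4.90. The higher gene was Clec10a, which is also on this list. No marker of the list was at 0, and the list summed to 127.5 in WT against 170.0 in Postn-DTR, mostly from Clec10a. The part of dendritic cells in the change of Mgl2 was not tested.

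The receptor and the transcription factor that start the pathway stayed within 2-fold. Il4ra (ENSMUSG00000030748, chr7:125552120-125579474 on the plus strand) was at 26.6 FPKM in WT against 53.4 in Postn-DTR. The ratio was 2.01 (1.93 to 2.1), but the change of 0.98 stayed just under the threshold, which it just passed with a pseudocount of 0.1 and missed at 0.65 with equal totals. Stat6 (ENSMUSG00000002147, chr10:127642986-127660957 on the plus strand) was at 57.7 FPKM in WT against 62.0 in Postn-DTR, a change of 0.10 that turned to -0.24 at equal totals. Stat6 protein is controlled by phosphorylation, which RNA does not show.

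The ligands were close to the detection limit. Il4 was at 0.534 FPKM in WT, about 5 estimated reads, against 0.206 in Postn-DTR, about 2. Il13 was at 0.0427 in WT, about 1 read, and at 0 in Postn-DTR. A difference in either cytokine was thus not detectable at this depth, where the floor was set at 3 reads. Of the 11 genes listed for the IL-4 and IL-13 pathway, both cytokines included, 8 passed the minimum mean FPKM of 1. Irs2, an adaptor that signals from the IL-4 and insulin receptors, was higher at 7.25 and 16.8, a change of 1.11 that came to 0.80 at equal totals. The other 7 compared were within 2-fold. Il13ra1, the partner of IL-4Rα in the receptor for IL-13, was at 9.01 and 15.8. Il2rg, which encodes the common γ chain, was at 94.6 and 67.0, and the kinases Jak1 (57.3 and 51.4), Jak3 (31.5 and 26.2) and Tyk2 (17.9 and 13.1) had negative changes. The feedback inhibitors Socs1 (8.17 and 6.66) and Cish (11.1 and 15.3) differed in sign. The median change of the list was -0.21, or -0.53 at equal totals.

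Transcription factors and cofactors linked to alternative activation were mixed. Of 11 compared, 3 were at least 2-fold higher, 1 lower and 7 within 2-fold, with a median change of 0.80 that was 0.49 at equal totals. Irf4, which acts with the histone demethylase Kdm6b in this program, rose from 13.3 to 41.0, whereas Kdm6b was at 10.6 and 12.6, a difference whose sign turned at equal totals. Cebpb, a bZIP factor required for Arg1 induction in macrophages, rose from 39.0 to 110.3. Bhlhe40 rose from 21.1 to 47.1, a change of 1.12 that was 0.79 at equal totals. Pparg was the lower gene, at 59.1 and 27.3, and is also the main regulator of adipocytes, which fill this tissue. Klf4 (29.0 and 51.0), Myc (15.5 and 30.7) and Egr2 (2.42 and 4.78), all targets of IL-4 in macrophages, were under 2-fold. Ppargc1b was low, at 0.460 and 1.77, and its change of 0.92 stayed under the threshold although its FPKM ratio was 3.84.

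The wider set of alternative activation markers was mixed. Of 20 listed 16 were compared, with 6 at least 2-fold higher, 1 lower and 9 within 2-fold, and a median change of 0.61. At equal totals the median was 0.28 and 4 were higher, because Clec10a and Il1rn came under the threshold. Alox15, a lipoxygenase of peritoneal macrophages and eosinophils that IL-4 induces, rose from 33.1 to 317.0, the largest increase on the list at 9.57-fold. Il10, an anti-inflammatory cytokine, rose from 1.20 to 7.63, and Trem2, a lipid receptor of macrophages, from 40.5 to 145.6. Ccl17, a chemokine for CCR4, rose from 1.65 to 5.85, which rested on about 12 and 43 reads. Cd209a was the lower gene. Ccl22, which shares its receptor with Ccl17, was at 5.36 and 6.27, and Tgm2, a transglutaminase used as a marker in mouse and human, at 183.4 and 179.1. Folr2 (158.4 and 170.3) and F13a1 (100.2 and 133.9), genes of resident tissue macrophages, were within 2-fold, as were Msr1 (29.0 and 52.8) and Ccl8 (127.6 and 223.0). Pdcd1lg2, which encodes PD-L2, had a mean under the minimum at 0.895 and 0.426.

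**Figure D3:**
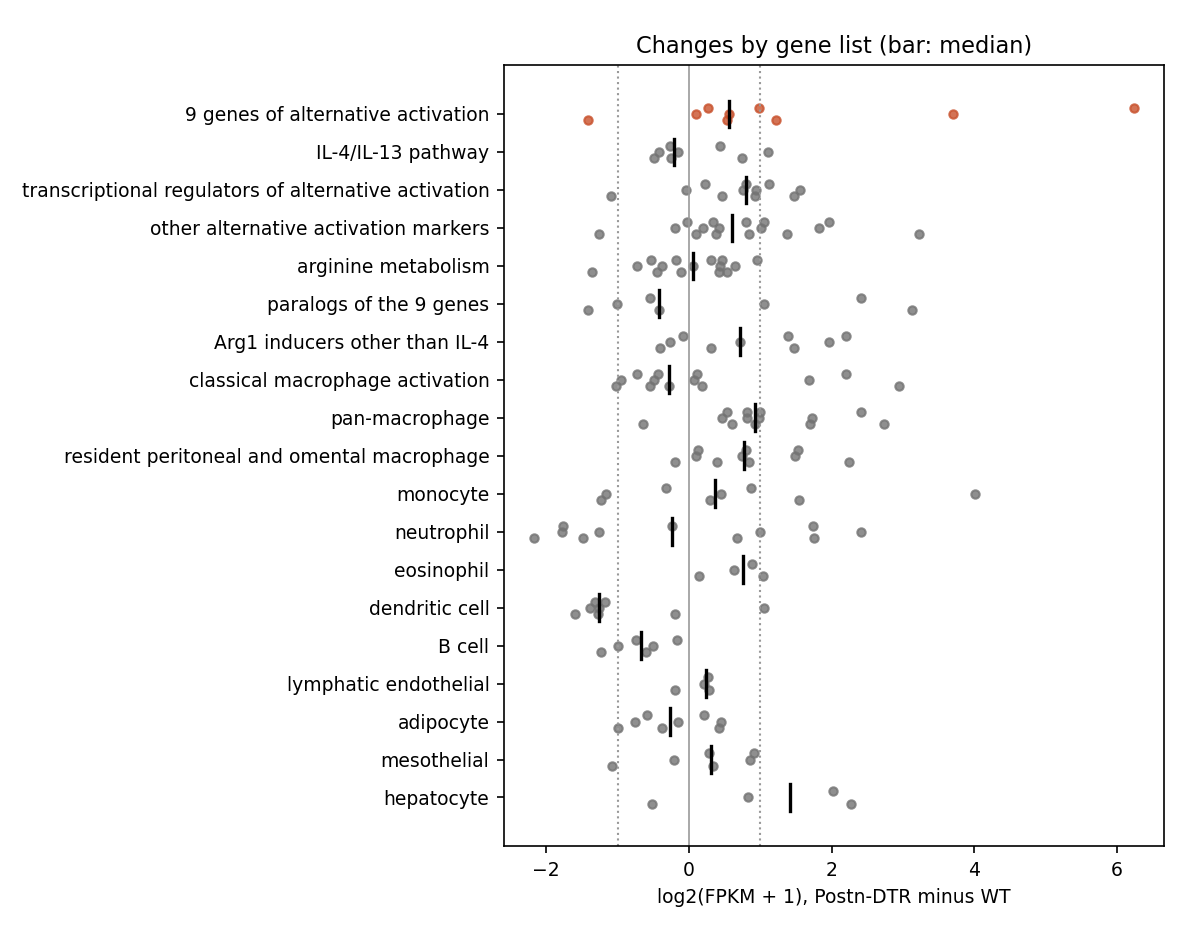
Change in log2(FPKM + 1), Postn-DTR minus WT, for each gene compared in the 9-gene set (orange) and the other lists (grey; some genes are on more than 1 list, and the pancreatic acinar list is not drawn), with black bars at the list medians and dotted lines at 2-fold. The pan-macrophage list is shifted to the right with a median of 0.93, the dendritic cell list to the left with -1.26, and Arg1 lies to the right of every other point shown.

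Most other genes of arginine metabolism stayed within 2-fold. Of 20 genes listed 15 were compared, with 0 at least 2-fold higher and 1 lower, and a median change of 0.056 that became -0.19 at equal totals. Arg2, the mitochondrial arginase, was at 0.106 in WT against 0.683 in Postn-DTR, about 3 and 20 reads, under the minimum mean FPKM. Nos2, the inducible nitric oxide synthase that competes for the same substrate, was at 1.70 and 0.624, a change of -0.73. The ratio of Arg1 to Nos2 was 2.75 in WT and 684.4 in Postn-DTR, which mainly restates the increase of Arg1 that chose the set. Nos2 rested on about 127 reads in WT and 48 in Postn-DTR. Among enzymes using ornithine, the product of arginase, Odc1 was at 43.6 and 60.5 and Oat at 111.4 and 151.4. The arginine transporter Slc7a2 was at 5.68 and 11.9, a change of 0.95, and Slc7a1 at 4.88 and 6.88. Gatm, which uses arginine for creatine synthesis, was the lower gene, at 36.1 and 13.4.

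Genes of classical activation, the program driven by interferon-γ and microbial products, also split. Of 16 listed 13 were compared, with 3 at least 2-fold higher and 1 lower, and a median change of -0.28, or -0.59 at equal totals. The higher genes were Socs3, a STAT3 target that restrains IL-6 signalling, from 17.8 to 143.4, Il6 from 0.436 to 5.58 and Il1b from 1.87 to 8.19. Il6 rested on about 9 reads in WT and 125 in Postn-DTR. Cxcl9, an interferon-γ target, was the lower gene at 7.60 and 3.22. With a minimum mean of 10 FPKM, and also with a pseudocount of 5, the list had 1 higher gene and 0 lower. Tnf, an inflammatory cytokine, was at 3.76 and 2.26. Of 10 factors listed as inducers of Arg1 apart from IL-4, 9 were compared and 4 were higher, 0 lower, with a median of 0.72 and 0.38 at equal totals. These 4 were Il6, Il10, Cebpb and Adora2b, an adenosine receptor at 1.67 and 5.99. The count of 4 came to 1 with a minimum mean of 10 FPKM and to 2 with a pseudocount of 5. Stat3 was at 66.5 and 109.9, Hif1a at 17.4 and 21.7 and Il33, an alarmin of stromal cells, at 43.0 and 40.5. Csf2 was under the minimum at 0.310 and 0.349.

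Paralogs of the 9 genes differed from them in several families. Chil1, a secreted chitinase-like protein related to Chil3, rose from 1.53 to 21.1, or 13.8-fold. Retnlg, which neutrophils express, rose from 12.8 to 72.6, while Retn, the resistin of adipocytes, was at 939.5 and 640.6. Cd163l1 fell from 10.2 to 3.20 where Cd163 rose. Ccl11, a second eotaxin made by fibroblasts, fell from 23.8 to 11.3, and Mrc2 was at 22.1 and 16.2. Retnlb and Ccl26 were listed at 0 in both libraries. Apart from Chil3 with Chil4 and Mgl2 with Clec10a, 7 pairs of member and paralog were compared, and 0 shared a 50-base window.

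Whole tissue was measured, so that a change in the number of cells of a type and a change in RNA per cell cannot be told apart. The paper also counted omental cells at the same time after DT. It reported no change in macrophage number, and fewer T cells and conventional B cells. How those counts relate to the RNA levels here was not tested. Of 13 pan-macrophage markers 4 were at least 2-fold higher and 0 lower, with a median change of 0.93, or 0.58 at equal totals, and the list summed to 5090 in WT against 8935 in Postn-DTR with no marker at 0. The higher genes were Cd14, a lipopolysaccharide co-receptor, from 33.6 to 230.1, the integrin Itgam from 46.8 to 251.9, Adgre1, a surface receptor of macrophages, from 41.1 to 137.6, and the lysosomal Cd68 from 113.8 to 369.4. The complement gene C1qa was at 726.8 and 1282 and the growth factor receptor Csf1r at 158.3 and 219.1, both within 2-fold. Mertk was at 17.0 and 34.4, with a change of 0.98 just under the threshold. Aif1 was at 46.4 and 29.2, the single negative change of the list. The largest change on that list was 2.74, for Cd14, beside 6.24 for Arg1 and 3.71 for Chil3. Arg1 was picked for its large increase, so that its place above the list was set in advance and is no result. Set against the list median, an alternative added after the data were seen, Arg1 was 5.31 and Chil3 2.78 higher, Cd163 0.29 and Il4ra 0.052 higher. On the same scale Mrc1 was at -0.37, Ccl24 at -0.40, Retnla at -0.67, Stat6 at -0.83 and Mgl2 at -2.34.

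**Figure D4:**
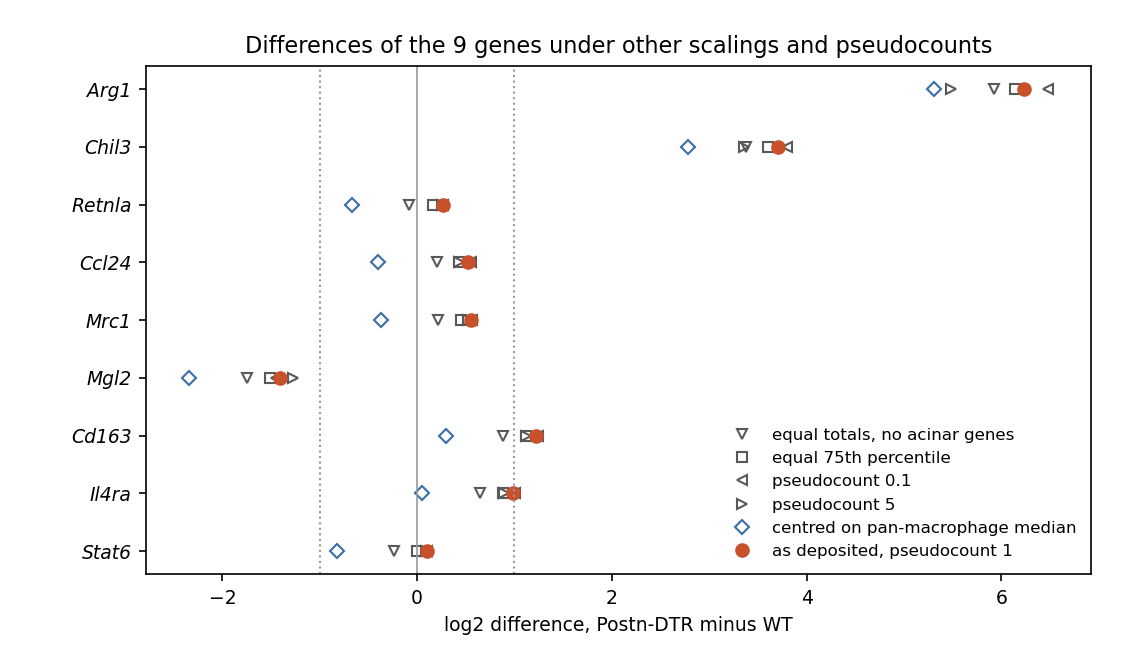
Difference of the 9 genes (log2, Postn-DTR minus WT) as deposited with a pseudocount of 1 (filled circles) and under other scalings and pseudocounts (open symbols). Arg1, Chil3 and Mgl2 keep their side of the dotted 2-fold lines under every setting drawn, Retnla and Stat6 cross 0 at equal totals, and Mrc1 and Ccl24 cross it only when centred on the pan-macrophage median.

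Resident macrophage, monocyte and neutrophil markers were listed beside the set because these cells can express its members. Of 10 resident markers 3 were higher and 0 lower, with a median of 0.77, or 0.44 at equal totals, and the list summed to 638.4 and 993.9 with no marker at 0. Gata6, the transcription factor of large peritoneal macrophages, was at 18.6 and 33.1. Of 8 monocyte markers 2 were higher, 2 lower and 4 within 2-fold, with a median of 0.37, or 0.052 at equal totals. The list summed to 744.1 and 1303, mostly from Fn1, which was within 2-fold at 459.1 and 836.8. F10, coagulation factor X, rose from 3.08 to 64.5 and Ly6c2 from 50.9 to 150.3, while Ccr2, the receptor that brings monocytes from the blood, fell from 39.6 to 16.4. Of 11 neutrophil genes found, all compared, 3 were higher and 5 lower, with a median of -0.24, or -0.57 at equal totals. With a minimum mean of 10 FPKM 1 was higher and 2 lower. The list summed to 471.2 and 721.1 with none at 0. Most of both sums came from S100a8 (169.7 and 338.6) and S100a9 (156.6 and 249.3), both within 2-fold. The granule genes Camp, Ltf, Ngp, Mpo and Elane, transcribed at early stages of neutrophil maturation, fell, and Retnlg, Cxcr2 and Mmp8 rose. The part of any of these cells in the changes of Arg1, Chil3 and Cd163 was not tested.

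Of 8 eosinophil markers listed 4 were compared and 1 was higher, Ear2 at 13.7 and 29.1, a call lost at equal totals. Siglecf was at 0.0584 and 0.207, Epx at 0.0862 and 0.0333 and Ear6 at 0 in both, and the list summed to 29.0 and 51.1. Of hepatocyte genes, listed because hepatocytes are a rich source of Arg1, Otc and Fgb were at 0 in both libraries, Cps1 was at 0.12 and 0.132, Alb at 2.17 and 1.22 and Ttr at 0.0842 and 0. Of the 12 listed 4 were compared, with 2 higher, Tat at 0.454 and 6.03 and Apoc3 at 5.28 and 24.4. The list summed to 692.5 and 1238, nearly all of it from Cyp2e1 (681.6 and 1205), which fat also expresses. Il4ra is used by B cells, whose 6 markers all had negative changes, with 1 past 2-fold and 3 at equal totals, and sums of 485.6 and 345.8 with none at 0. Mrc1 is used by lymphatic endothelium, where 4 of 6 markers were compared and all were within 2-fold, Prox1 was at 0.0218 and 0.0738, and the list summed to 160.0 and 158.2. Genes of the labelled tissue were abundant in both libraries. Adipocyte genes summed to 15096 and 14566, with 8 of 8 within 2-fold as deposited and 2 lower at equal totals (Plin1 and Lipe), and mesothelial genes to 507.0 and 549.0, with 1 of 6 lower.

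The genes whose pair of values lay nearest to that of Arg1 were found by the distance on log2(FPKM + 1) over the 2 libraries. They were Timp1 (10.5 and 178.7, distance 1.61), an inhibitor of metalloproteinases, Chil3 (distance 1.79), Serpina3m (2.03 and 138.1, distance 1.86), a protease inhibitor of the acute phase, Saa2 (0.526 and 626.6, distance 1.97), an acute-phase apolipoprotein, and Fcgr4 (11.8 and 135.7, distance 2.02), an activating Fc receptor of myeloid cells. Chil3 was the one member among these 5. These 2 libraries give only 1 pair of values per gene, so that nearness here rests on the level in each library. The 5 genes still differed in level from Arg1, which was at 4.68 and 427.3. The search used the values that chose Arg1, so nothing is read from the increases of the genes it returned.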

How the data were processed

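RNA-seq libraries of the complete omentum, 1 from WT and 1 from Postn-DTR mice, were used. Per the labels, RNA was isolated with a miRNeasy kit and made into libraries with a stranded TruSeq mRNA kit. The authors deposited FPKM, with 1 value per gene symbol. The submitters' processing notes name TopHat2 2.1.1, Bowtie2 2.2.8, SAMtools 0.1.18, Cuffdiff 2.2.1 and mm10; the annotation was not given in the sources used here.

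Changes were differences of log2(FPKM + 1) for genes whose mean FPKM reached 1. No test was run. Positions and transcript lengths came from GENCODE M21 (GRCm38, the same assembly as mm10), which may differ from the authors' annotation. Depth was estimated from low values: of 723 genes under 0.1 FPKM in each library, 174 shared a single ratio (0.967, Postn-DTR over WT), and 66.9% of WT and 63.2% of Postn-DTR low values came within 0.05 of whole reads, with transcripts shortened by 210 bases. Read numbers are therefore approximate.

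Alternatives were equal totals without acinar genes, an equal 75th percentile, centring on all genes, pseudocounts of 0.1 and 5, no minimum or one of 10 FPKM, and 1.5-fold and 3-fold thresholds.

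The 9 genes, the 19 other lists and the alternatives were chosen with earlier results of these data known. All 9 genes were named, with list members and the 5 genes nearest to Arg1. Ear11 and Ly6g were not analysed here. Scripts used Python 3.11.15, pandas 2.3.3 and scipy 1.17.1, and the depth estimate was tested on simulated data.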

Additional observations from a re-analysis of the deposited data

How the results depend on the processing

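No paired analysis was possible because there is 1 library per genotype, and for the same reason no library could be left out. The change of Arg1, 6.24, became 5.48 with a pseudocount of 5, 5.92 at equal totals and 5.31 when centred on the pan-macrophage median, a setting added after the data were seen. The number of the 9 genes at least 2-fold higher was 3 and ranged from 2 to 4 over all settings, and the number lower was 1, or 0 at 3-fold. At equal totals the changes of Retnla (-0.082) and Stat6 (-0.24) reversed, and centred on the pan-macrophage median so did those of Mrc1 (-0.37), Ccl24 (-0.40), Retnla (-0.67) and Stat6 (-0.83), by construction of that scale. Over all genes, the 509 higher became 287 with a pseudocount of 5, 303 with a mean FPKM of at least 10, 305 at equal totals, and 1294 and 199 at 1.5-fold and 3-fold. The 410 lower became 643 and 168 with pseudocounts of 0.1 and 5, 173 with the minimum of 10, 787 at equal totals, and 1160 and 153 at 1.5-fold and 3-fold. Of 340 counts of the other lists, made without the pan-macrophage centring, 73 moved by over 1.5 times or went to or from 0. Depth limits the statements on Il4, Il13 and Arg2.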
